A study of Homo sapiens with 9 samples.

Results

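The BCL2 family genes described here are 10 genes chosen by symbol, all found in the count table and all tested, out of 62700 genes in the table and 17576 tested. They are 3 pro-survival genes (BCL2, BCL2L1 and MCL1), 5 BH3-only genes (BCL2L11, PMAIP1, BBC3, BMF and HRK) and 2 effector genes (BAX and BAK1). RNA was polyA-selected and sequenced from 293T cells, a human embryonic kidney line that carries the large T antigen of simian virus and adenoviral early genes that include a BCL2-like survival protein. The cells received an empty vector, a plasmid for HA-CIC::DUX4 or a plasmid for HA-CIC(ex20)::NUTM1(ex6), and were harvested about 48 hours after transfection, with 3 libraries per group and replicates transfected on separate days. All 3 groups share the host line, its viral genes and the transfection procedure. Expression was transient, and the share of cells that took up a plasmid was not measured here.

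BCL2 family proteins decide whether the outer mitochondrial membrane is permeabilized. The pro-survival proteins bind and restrain the effectors BAX and BAK1, which otherwise form pores that release cytochrome c, and BH3-only proteins activate the effectors or occupy the pro-survival proteins. Many of these genes are set at the level of RNA by stress and growth factor signalling, and CIC, a repressor of genes downstream of receptor tyrosine kinases, becomes an activator when fused to DUX4 or NUTM1.

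Library totals ran from 16970771 to 33655445 counts. The lowest count of a member in any library was 99, for BMF in CIC::NUTM1 replicate 1. Of 8 genes known in HEK293 cells, all were detected in all 9 libraries, with the lowest value 4.14 CPM (a count relative to its library total, adjusted by TMM factors) for PAX2. Of 7 genes of other lineages, HBB had 0 counts throughout, and CD3E, MYH7, ALB, PTPRC and GFAP stayed at or below 1.82 CPM in each library. COL3A1, a fibrillar collagen gene, was at 4.17 to 6.37 CPM. The transcripts of the fused genes were not analysed here. In a bulk sample, fewer cells with a transcript and less of it per cell cannot be told apart.

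In empty vector the members differed widely in level. Per kilobase of annotated exon, MCL1 and BAX were the most abundant in empty vector, at 52.0 ± 3.23 and 50.1 ± 3.59 CPM per kilobase (SD, n = 3), and their libraries overlapped. BAK1 (33.6 ± 0.977) and PMAIP1 (32.2 ± 1.26) came next, and they also overlapped, as did BCL2L1 (8.33 ± 0.139) and BBC3 (7.76 ± 0.767) below them. BCL2L11 followed at 5.93 ± 0.321 CPM per kilobase, above BMF (2.04 ± 0.0710) and HRK (1.96 ± 0.163), whose libraries overlapped. BCL2 was lowest, at 0.826 ± 0.0790 CPM per kilobase. It made up 0.424% of the summed per-length level of the 10 genes, against 26.7% for MCL1 and 25.7% for BAX.

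**Figure D1:**
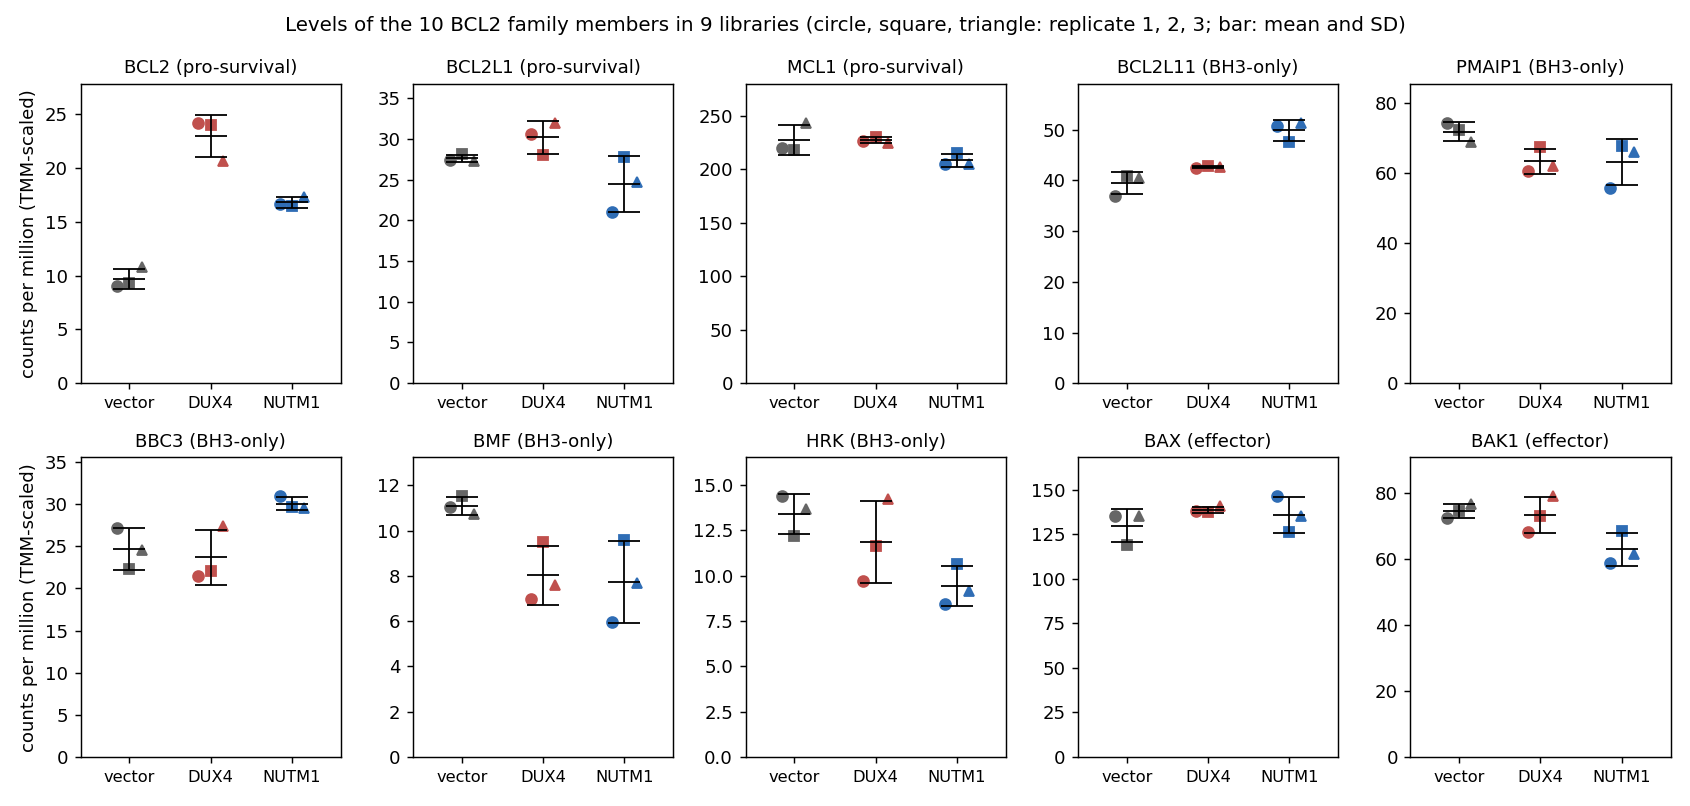
Level of each of the 10 members in CPM (vertical axes, starting at 0, TMM-scaled) in the 3 empty vector, 3 CIC::DUX4 and 3 CIC::NUTM1 libraries, with the mean and SD of each group. BCL2 lies between 9.04 and 10.8 in empty vector, between 16.5 and 17.4 with CIC::NUTM1 and between 20.7 and 24.2 with CIC::DUX4, while MCL1 stays between 204.5 and 243.5 in all 9 libraries.

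BCL2 was the only member called with both fusions. Of all tested genes, 8.24% were called in either direction with CIC::DUX4 and 15.3% with CIC::NUTM1. The share called with both is not given here. It is the founding pro-survival gene of the family, on chromosome 18 (63123346 to 63320128, minus strand, GRCh38). BCL2 was at 9.04, 9.34 and 10.8 CPM in empty vector, at 16.6, 16.5 and 17.4 CPM with CIC::NUTM1, and at 24.2, 24.1 and 20.7 CPM with CIC::DUX4. The 3 groups did not overlap, with empty vector lowest and CIC::DUX4 highest. BCL2 rose 2.37-fold with CIC::DUX4, a log2 fold change of 1.24 ± 0.13 (SE; edgeR quasi-likelihood test, adjusted p = 1.17e-07). With CIC::NUTM1 it rose 1.73-fold, by 0.79 ± 0.13 on the log2 scale (edgeR adjusted p = 6.21e-05). Of all tested genes, 5.15% had a larger change in size with CIC::DUX4 and 11.1% with CIC::NUTM1. The direct test put BCL2 1.37-fold higher with CIC::DUX4 than with CIC::NUTM1 (log2 difference -0.45 ± 0.12, edgeR adjusted p = 0.024), a comparison in which 6.61% of all tested genes were called. This difference lost its call without replicate 1 or 2 of CIC::NUTM1 or of CIC::DUX4, with edgeR adjusted p between 0.0582 and 0.112 in those 4 refits.

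Per length, BCL2 reached 1.95 ± 0.169 CPM per kilobase with CIC::DUX4 (SD, n = 3). There its libraries (1.76 to 2.06) lay within the range of HRK (1.42 to 2.08) and just above every BMF library (1.28 to 1.74). Such ranks between genes depend on the exon lengths used, here 11765 bases for BCL2, 6853 for HRK and 5447 for BMF. With CIC::NUTM1, BCL2 at 1.43 ± 0.0408 overlapped BMF at 1.42 ± 0.333 and HRK at 1.37 ± 0.162 CPM per kilobase. BCL2 remained far below MCL1, which was at 52.0 ± 0.650 CPM per kilobase in the CIC::DUX4 libraries and 47.7 ± 1.39 in those of CIC::NUTM1.

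The genes whose log2 CPM followed that of BCL2 most closely over the 9 libraries were LINC02192, ADPRHL1 and S100A16, with Pearson r of 0.987, 0.985 and 0.984. These correlations describe libraries that share their groups and depth and carry no test. ADPRHL1, a gene related to ADP-ribosylhydrolases, had means of 2.04, 6.14 and 12.2 CPM in empty vector, CIC::NUTM1 and CIC::DUX4. S100A16, a calcium-binding protein gene, had means of 0.141, 4.89 and 18.6 CPM in the same order. The noncoding LINC02192 had 0 counts in empty vector and reached 0.500 and 1.47 CPM with CIC::NUTM1 and CIC::DUX4. At such low counts its log2 values, and so its correlation, depend on the prior count of 2.

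The other pro-survival genes were not called in any comparison. MCL1, a short-lived survival protein on chromosome 1 (150574551 to 150579738, minus strand), was at 220.1, 218.1 and 243.5 CPM in empty vector, at 205.3, 215.5 and 204.5 CPM with CIC::NUTM1, and at 226.6, 230.2 and 224.5 CPM with CIC::DUX4. The CIC::DUX4 libraries lay within the range of empty vector, and the interval of the log2 fold change was -0.12 to 0.12 (95%). With CIC::NUTM1 all 3 libraries lay below all 3 of empty vector, by -0.12 ± 0.06 on the log2 scale (edgeR adjusted p = 0.183). BCL2L1, which encodes BCL-XL on chromosome 20 (31664452 to 31723989, minus strand), was at 27.4, 28.1 and 27.3 CPM in empty vector, at 21.0, 27.8 and 24.7 CPM with CIC::NUTM1, and at 30.6, 28.0 and 32.0 CPM with CIC::DUX4. The libraries of each fusion overlapped those of empty vector, and those of the fusions did not overlap each other. The direct difference of BCL2L1 was -0.30 ± 0.11 (log2, CIC::NUTM1 minus CIC::DUX4; edgeR adjusted p = 0.119), and it passed without CIC::NUTM1 replicate 2 (edgeR adjusted p = 0.0349). In GENCODE 29, BCL2L1 shares exon sequence with ABALON on the other strand and MCL1 with ADAMTSL4-AS1 on the same strand, so their counts are uncertain to that extent.

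Promoter sequences were examined because the HMG box of CIC recognizes an octamer, here TGAATGAA, TGAATGGA, TCAATGAA or TCAATGGA on either strand. RefSeq promoter windows (GRCh38.p14, 250 bases before to 50 after a start) matched 9 of the 10 members, all but MCL1. Among 35116 windows of this length, 3.77% held the octamer. It was found for 1 member, BCL2L1, with its first base at position -149 relative to the start site of its first window. The other BCL2L1 window held no octamer. No octamer was found in the windows of BCL2, BMF or HRK, which says only that these letters are absent from those windows. The AP-1 motif TGANTCA, held by 7.71% of windows, was found for BBC3, and the E-box CACGTG, held by 7.26%, for BBC3 and BAX. The ETS motif CCGGAA, held by 17.2%, was found for BCL2L1, after its start. The 4 windows below are those of BCL2L1, which carried the octamer, of BBC3, which carried the AP-1 motif, and of BCL2L11 and HRK, the BH3-only genes called with CIC::NUTM1. They are printed 5′ to 3′ on the gene's strand up to the first base of an annotated GENCODE 29 exon, with these motifs in capitals.
BCL2L1 (chr20:31723990-31724213, minus strand): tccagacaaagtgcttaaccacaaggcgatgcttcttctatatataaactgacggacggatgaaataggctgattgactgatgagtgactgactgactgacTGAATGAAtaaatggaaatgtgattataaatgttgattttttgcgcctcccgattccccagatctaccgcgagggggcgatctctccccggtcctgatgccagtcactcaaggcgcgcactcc
BBC3 (chr19:47232767-47232917, minus strand): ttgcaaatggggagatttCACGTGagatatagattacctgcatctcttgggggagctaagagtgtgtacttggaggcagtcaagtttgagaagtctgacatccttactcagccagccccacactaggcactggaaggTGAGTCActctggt
BCL2L11 (chr2:111120664-111120913, plus strand): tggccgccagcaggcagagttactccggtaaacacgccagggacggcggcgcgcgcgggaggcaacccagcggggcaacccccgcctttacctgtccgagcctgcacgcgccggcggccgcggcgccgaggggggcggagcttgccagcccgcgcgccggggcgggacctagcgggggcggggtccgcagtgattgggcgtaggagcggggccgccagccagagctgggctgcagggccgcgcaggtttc
HRK (chr12:116881442-116881691, minus strand): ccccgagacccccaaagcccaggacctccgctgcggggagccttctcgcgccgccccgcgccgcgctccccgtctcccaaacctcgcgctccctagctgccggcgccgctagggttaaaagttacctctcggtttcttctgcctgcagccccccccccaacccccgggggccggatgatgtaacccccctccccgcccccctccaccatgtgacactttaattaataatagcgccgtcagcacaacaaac
The first base of the BCL2 window already lies in an annotated GENCODE 29 exon, so that window is not printed.

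The BH3-only genes moved in different directions with CIC::NUTM1. BCL2L11, on chromosome 2 (111119378 to 111168447, plus strand), encodes BIM, which can bind all pro-survival proteins. It was at 37.0, 41.0 and 40.4 CPM in empty vector and at 50.8, 47.5 and 51.4 CPM with CIC::NUTM1, with no overlap. BCL2L11 rose 1.26-fold (log2 fold change 0.33 ± 0.08, SE; edgeR adjusted p = 0.00622). It kept its call in each of the 6 refits without 1 library (edgeR adjusted p up to 0.0487). With CIC::DUX4 it was at 42.5, 42.8 and 42.7 CPM, above all empty vector libraries but not called (0.11 ± 0.08, edgeR adjusted p = 0.529). The direct difference between the fusions, 0.22 ± 0.08, did not pass (edgeR adjusted p = 0.126), although the fusion libraries did not overlap. An annotated exon of MIR4435-2HG overlaps this gene on the other strand.

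HRK, on chromosome 12 (116856144 to 116881441, minus strand), is a BH3-only gene best known in neurons. It was at 14.4, 12.2 and 13.7 CPM in empty vector, at 8.46, 10.6 and 9.17 CPM with CIC::NUTM1, and at 9.73, 11.6 and 14.2 CPM with CIC::DUX4. The CIC::NUTM1 libraries all lay below empty vector, whereas those of CIC::DUX4 overlapped it. HRK fell by 0.50 ± 0.16 on the log2 scale with CIC::NUTM1 (edgeR adjusted p = 0.0333). The call was lost without replicate 1 or 3 of empty vector or of CIC::NUTM1 (edgeR adjusted p 0.0785 to 0.124). With CIC::DUX4 the log2 fold change was -0.18 ± 0.16 (edgeR adjusted p = 0.599). The direct difference of HRK, CIC::NUTM1 minus CIC::DUX4, did not pass (-0.32 ± 0.16, edgeR adjusted p = 0.3), and the fusion libraries overlapped.

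BMF, on chromosome 15 (40087890 to 40108892, minus strand), encodes a BH3-only protein linked to the cytoskeleton. It had lower values with both fusions than in any empty vector library. BMF was at 11.04, 11.5 and 10.7 CPM in empty vector, at 5.94, 9.57 and 7.67 CPM with CIC::NUTM1, and at 6.98, 9.49 and 7.59 CPM with CIC::DUX4. The log2 fold changes were -0.51 ± 0.18 (edgeR adjusted p = 0.0543) and -0.47 ± 0.18 (edgeR adjusted p = 0.119), so neither passed. With CIC::NUTM1 the call turned on the processing. BMF passed in 7 of 9 other settings, among them the fit with the replicate number as a block (edgeR adjusted p = 0.0293), DESeq2 (adjusted p = 0.0358) and DESeq2 size factors in edgeR (adjusted p = 0.0476). It also passed without CIC::NUTM1 replicate 2 (edgeR adjusted p = 0.0114), and over the 6 refits without 1 library the adjusted p ran from 0.0114 to 0.245. BMF-AS1 overlaps it on the other strand.

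PMAIP1 and BBC3, which encode the BH3-only proteins NOXA and PUMA, were not called. PMAIP1, on chromosome 18 (59899948 to 59904306, plus strand), was at 74.5, 72.5 and 68.9 CPM in empty vector, at 55.8, 67.8 and 66.3 CPM with CIC::NUTM1, and at 60.7, 67.6 and 62.0 CPM with CIC::DUX4. Its fusion libraries all lay below empty vector, with log2 fold changes of -0.18 ± 0.08 in each comparison (edgeR adjusted p = 0.154 for CIC::NUTM1 and 0.223 for CIC::DUX4). BBC3, on chromosome 19 (47220822 to 47232766, minus strand), was at 27.2, 22.3 and 24.5 CPM in empty vector, at 30.9, 29.7 and 29.5 CPM with CIC::NUTM1, and at 21.5, 22.1 and 27.4 CPM with CIC::DUX4. The CIC::NUTM1 libraries lay above all 6 others. BBC3 differed from empty vector by 0.29 ± 0.11 (edgeR adjusted p = 0.0869) and from CIC::DUX4 by 0.35 ± 0.11 (edgeR adjusted p = 0.0661) on the log2 scale. The second difference passed without CIC::DUX4 replicate 3 (edgeR adjusted p = 0.0213). MIR3190 and MIR3191 overlap exons of BBC3.

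Of the effectors, BAK1 fell with CIC::NUTM1 and BAX was not called. BAK1, on chromosome 6 (33572547 to 33580293, minus strand), was at 72.2, 74.3 and 76.5 CPM in empty vector, at 58.6, 68.4 and 61.5 CPM with CIC::NUTM1, and at 68.1, 73.0 and 78.9 CPM with CIC::DUX4. Its CIC::NUTM1 libraries lay below all of empty vector and fell by 0.24 ± 0.08 on the log2 scale (edgeR adjusted p = 0.0417). The call was lost in 5 of 6 refits without 1 library (edgeR adjusted p 0.0649 to 0.15), all but the one without CIC::NUTM1 replicate 2, and when only the compared groups were fitted (edgeR adjusted p = 0.0505). The direct difference of BAK1, CIC::NUTM1 minus CIC::DUX4, did not pass (-0.22 ± 0.08, edgeR adjusted p = 0.119), and the fusion libraries overlapped. It passed in 1 of 6 refits without 1 library (edgeR adjusted p = 0.0474). GGNBP1 overlaps BAK1 on the other strand. BAX, on chromosome 19 (48954815 to 48961798, plus strand), was at 135.3, 119.0 and 134.9 CPM in empty vector, at 146.1, 126.0 and 135.2 CPM with CIC::NUTM1, and at 137.7, 137.1 and 140.7 CPM with CIC::DUX4. Its log2 fold changes were 0.07 ± 0.07 and 0.10 ± 0.07, with 95% intervals of -0.08 to 0.21 for CIC::NUTM1 and -0.05 to 0.24 for CIC::DUX4.

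Within CIC::NUTM1, replicate 2 had the highest and replicate 1 the lowest value of BCL2L1, PMAIP1, BMF, HRK and BAK1. Replicate 2 was also the deepest library of that group (26465985 counts) and replicate 1 the shallowest (17123926). The other members did not share that order. BAX was highest in replicate 1 and lowest in replicate 2 of CIC::NUTM1. There BCL2 and BCL2L11 were lowest in replicate 2, BBC3 was highest in replicate 1, and MCL1 was highest in replicate 2. In CIC::DUX4 the deepest library, replicate 1 with 25918037 counts, had the lowest value of PMAIP1, BMF, HRK and BAK1.

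**Figure D2:**
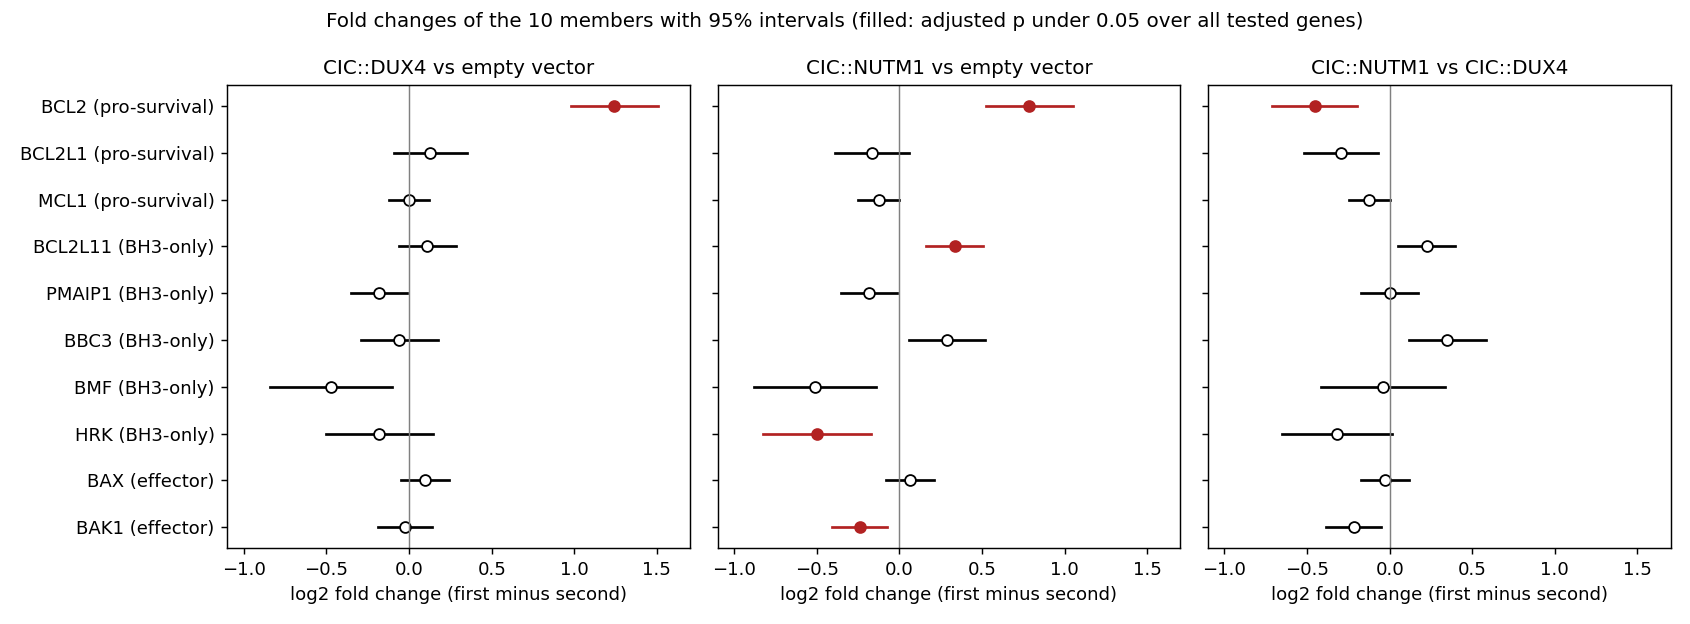
Log2 fold change (horizontal axes) of each member in the 3 comparisons, with 95% intervals as lines. Filled red points passed at an adjusted p under 0.05 over all tested genes: BCL2 in all 3 panels, and BCL2L11, HRK and BAK1 with CIC::NUTM1 against empty vector.

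Counted over the 10 members, CIC::DUX4 against empty vector gave 1 called higher and 0 called lower (edgeR adjusted p under 0.05; 2 were lower at an unadjusted p under 0.05, and DESeq2 also called 0 lower). Over all tested genes 6.96% were called higher and 1.27% lower. CIC::NUTM1 against empty vector gave 2 members higher and 2 lower, where 11.5% and 3.83% of all genes were called. That split was 2018 genes higher and 673 lower, and with library totals as the scaling it was 1783 and 1138. The direct comparison gave 0 members higher with CIC::NUTM1 (2 at an unadjusted p under 0.05, 0 with DESeq2) and 1 higher with CIC::DUX4, beside 4.97% and 1.64% of all genes (874 and 288, or 695 and 437 with library totals). Libraries did not overlap for 5 of 10 members with CIC::DUX4, 8 of 10 with CIC::NUTM1 and 5 of 10 between the fusions. The same held for 25.7%, 31.1% and 22% of all tested genes. The median log2 fold change of the 10 was -0.012 for CIC::DUX4 and -0.146 for CIC::NUTM1, beside -0.001 for all tested genes in each. The comparisons with empty vector share their control libraries.

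Summed by role, the pro-survival genes stood at 61.1 ± 3.23 CPM per kilobase in empty vector, 63.0 ± 0.210 with CIC::DUX4 and 56.5 ± 2.29 with CIC::NUTM1 (SD, n = 3). The BH3-only genes stood at 49.9 ± 1.53, 45.4 ± 2.15 and 48.0 ± 2.98, and the effectors at 83.8 ± 3.71, 86.7 ± 3.08 and 80.9 ± 1.82 CPM per kilobase in the same order. The ratio of the pro-survival sum to the sum of BH3-only and effector genes was 0.435, 0.458 and 0.479 in the empty vector libraries. It was 0.497, 0.475 and 0.461 with CIC::DUX4, and 0.429, 0.455 and 0.430 with CIC::NUTM1. Each fusion overlapped empty vector, and the fusions did not overlap each other. This ratio follows MCL1, BAX, BAK1 and PMAIP1, and BCL2 is a small part of it: its share of the summed level went from 0.424% to 1.00% with CIC::DUX4 and 0.771% with CIC::NUTM1.

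With members weighted alike within each side, as the mean log2 level of the pro-survival genes minus that of the other 7, the groups separated. Each pro-survival gene, BCL2 among them, thus counted for more in this alike-weighted score than each of the other 7. The difference was -0.58, -0.48 and -0.42 in empty vector, -0.21, -0.22 and -0.21 with CIC::NUTM1, and 0.21, 0.03 and -0.03 with CIC::DUX4. Against empty vector this score was thus 0.56 higher with CIC::DUX4 and 0.28 higher with CIC::NUTM1 on the log2 scale, where the summed levels gave 0.06 and -0.06. Without BCL2, the alike-weighted difference from empty vector was 0.17 for CIC::DUX4, and for CIC::NUTM1 it was -0.04. No test was made of these scores, since their genes were chosen.

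**Figure D3:**
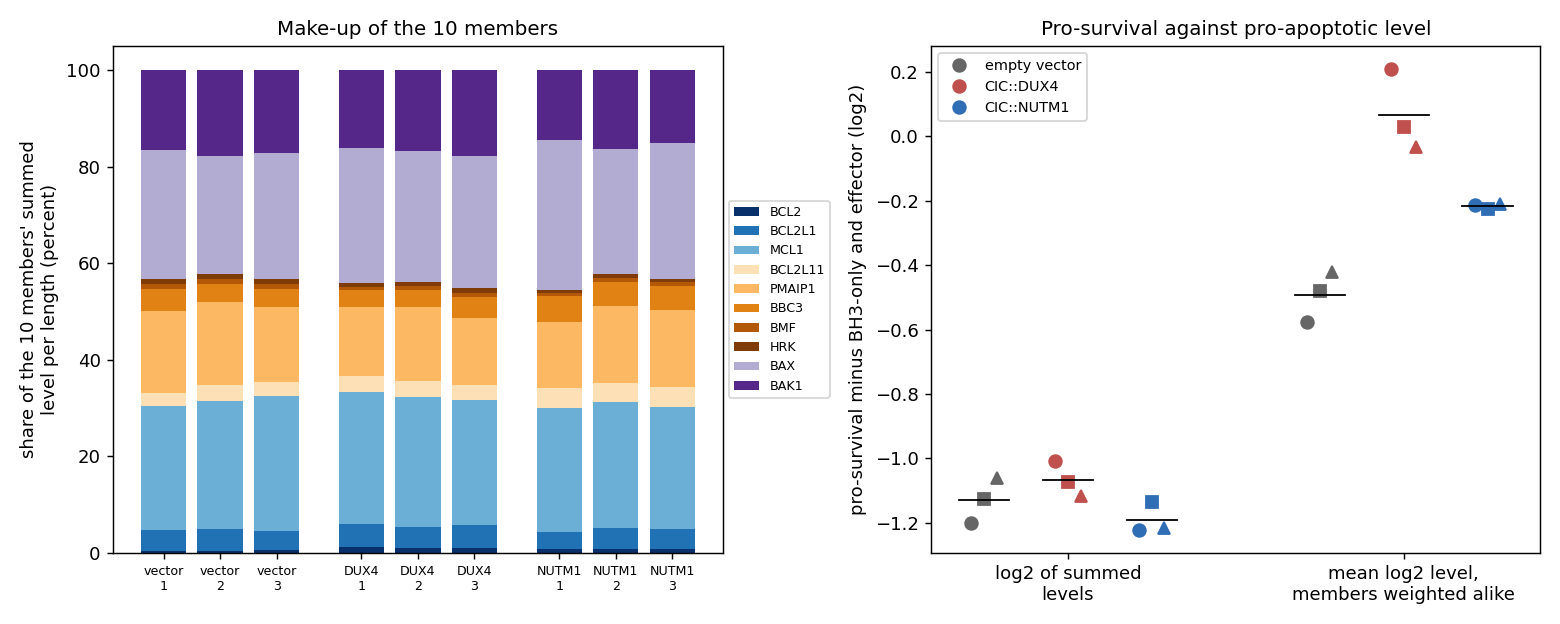
Left: share of each member in the summed per-length level of the 10 genes (percent, stacked bars, 1 bar per library). Right: pro-survival minus BH3-only and effector level on the log2 scale, 1 point per library and a line at each group mean. It is drawn from summed levels and with members weighted alike within each side. The summed measure overlaps between empty vector and each fusion, and the alike-weighted measure runs from -0.58 in empty vector to 0.21 with CIC::DUX4.

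Downstream of the members lie the apoptosome, the caspases and their inhibitors, a list of 19 genes, all tested. With CIC::DUX4, 2 were called higher and 0 lower (edgeR; 2 were lower at an unadjusted p under 0.05), and with CIC::NUTM1, 2 higher and 2 lower. Over all tested genes 6.96% and 1.27% were called higher and lower with CIC::DUX4, and 11.5% and 3.83% with CIC::NUTM1, so the counts of higher genes were near the general share. APAF1, the scaffold that cytochrome c assembles into the apoptosome, was at 48.2, 49.5 and 48.0 CPM in empty vector, at 67.1, 64.2 and 78.4 CPM with CIC::NUTM1, and at 90.8, 75.1 and 69.6 CPM with CIC::DUX4. Both fusions lay wholly above empty vector. APAF1 rose 1.44-fold with CIC::NUTM1 (log2 fold change 0.52 ± 0.09, edgeR adjusted p = 0.000205) and 1.62-fold with CIC::DUX4 (0.69 ± 0.09, edgeR adjusted p = 8.24e-06), and these calls held in all settings run. The direct test of APAF1 between fusions did not pass (edgeR adjusted p = 0.35).

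CASP9, the caspase that APAF1 activates, was at 23.1, 18.3 and 25.4 CPM in empty vector and at 35.5, 29.7 and 33.8 CPM with CIC::DUX4. It rose 1.49-fold there (0.57 ± 0.12, edgeR adjusted p = 0.00142) and was not called with CIC::NUTM1 (0.20 ± 0.12, edgeR adjusted p = 0.298). The direct difference between the fusions missed the threshold (edgeR adjusted p = 0.0536). With CIC::NUTM1, HTRA2, a mitochondrial protease that antagonizes caspase inhibitors, rose by 0.28 ± 0.08 on the log2 scale. XIAP, a caspase inhibitor, fell by 0.29 ± 0.08, and CYCS, which encodes cytochrome c, fell by 0.18 ± 0.06 (edgeR adjusted p between 0.0165 and 0.0319 for the 3 genes). Each of these 3 lost its call in 3 to 5 of 6 refits without 1 library, and HTRA2 also with library totals or upper quartile factors as the scaling. CYCS was lower with CIC::NUTM1 than with CIC::DUX4 as well (edgeR adjusted p = 0.0228), a call lost without CIC::NUTM1 replicate 1 (0.0874) or 3 (0.0588) or CIC::DUX4 replicate 2 (0.154).

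Of 16 other BCL2 family or interacting genes, 12 were tested, and none was called with CIC::DUX4 (edgeR; 1 at an unadjusted p under 0.05). With CIC::NUTM1 1 was called, BAG3, a co-chaperone, which rose by 0.27 ± 0.08 (edgeR adjusted p = 0.0277). Over all tested genes 8.24% were called in either direction with CIC::DUX4 and 15.3% with CIC::NUTM1, so neither count stands above the general share. BAG3 lost its call in 3 of 6 refits without 1 library and under library totals or upper quartile factors. BCL2A1, BCL2L10, BCL2L14 and BCL2L15 were below the abundance filter. Of 11 death receptor genes 7 were tested. With CIC::DUX4 0 of the 7 were called (edgeR; 1 was higher and 1 lower at an unadjusted p under 0.05), and with CIC::NUTM1 1 was. Neither count stands above the general shares just given. TNFRSF10B, a receptor for TRAIL, rose by 0.25 ± 0.07 with CIC::NUTM1 (edgeR adjusted p = 0.0199) and lost its call in 3 of 6 refits and under the same scalings. TNFRSF1A was 0.34 ± 0.10 lower with CIC::NUTM1 than with CIC::DUX4 (log2, edgeR adjusted p = 0.0354), a call lost in 4 of 6 refits.

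Of 15 regulators of BH3-only genes and of MCL1 turnover, 1 was called in each comparison, and it was FBXW7 each time. That count was no higher than the share of all tested genes called in either direction with CIC::DUX4 (8.24%) or CIC::NUTM1 (15.3%), and about equal to it between the fusions (6.61%). FBXW7 encodes a substrate receptor of a ubiquitin ligase for which MCL1 is a known substrate. It was at 28.0, 23.2 and 20.6 CPM in empty vector, at 46.6, 40.6 and 45.6 CPM with CIC::NUTM1, and at 34.03, 32.5 and 32.3 CPM with CIC::DUX4. The 3 groups did not overlap, in the order opposite to that of BCL2 for the fusions. FBXW7 rose 1.85-fold with CIC::NUTM1 (0.89 ± 0.11, edgeR adjusted p = 6.64e-07) and 1.38-fold with CIC::DUX4 (0.47 ± 0.11, edgeR adjusted p = 0.00434), and differed between them by 0.42 ± 0.10 (edgeR adjusted p = 0.012). The call with CIC::DUX4 was lost without empty vector replicate 3 (edgeR adjusted p = 0.0621), and the difference between fusions without CIC::NUTM1 replicate 3 (0.0711) or CIC::DUX4 replicate 2 (0.0559). JUN, a subunit of AP-1, came close to the threshold with CIC::DUX4 (-0.35 ± 0.10, edgeR adjusted p = 0.0532) and between the fusions (0.36 ± 0.10, edgeR adjusted p = 0.0565). ATF4, a transcription factor of the integrated stress response, did so with CIC::NUTM1 (-0.15 ± 0.05, edgeR adjusted p = 0.0549). The median log2 fold changes of the 4 lists lay between -0.175, for the 7 death receptor genes with CIC::NUTM1, and 0.059, for the 12 other BCL2 family genes with CIC::DUX4.

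**Figure D4:**
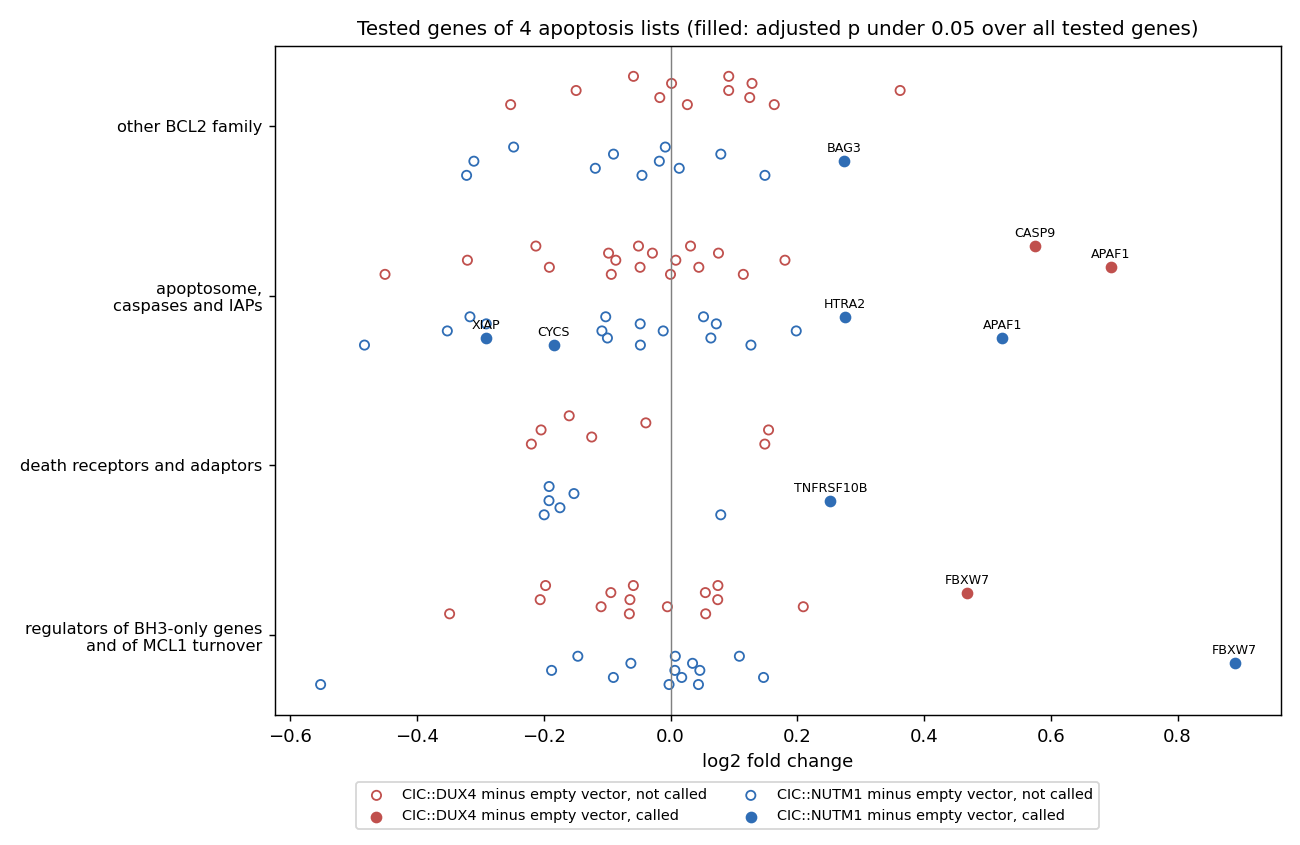
Log2 fold change against empty vector (horizontal axis) of each tested gene of 4 lists, with CIC::DUX4 in red and CIC::NUTM1 in blue. Filled and named points passed at an adjusted p under 0.05 over all tested genes. APAF1 and FBXW7 are filled for both fusions, and FBXW7 with CIC::NUTM1 lies farthest right among the filled points, at 0.89.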

How the data were processed

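The 9 libraries were grouped by their sample titles, and table columns were matched by the library names in the labels. Raw counts by Ensembl gene were deposited with a table of log2 CPM for 15811 genes. The submitters' processing notes name STAR 2.7.10b, R 4.2.2, edgeR 3.40.2 and GRCh38. Which annotation was counted, and whether strand was used, is not given in the sources used here. The deposited log2 CPM matched values recomputed from the counts by TMM with a prior count of 2 (Pearson r = 1 over 15699 genes).

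The deposited counts went into edgeR 4.0.16 (R 4.3.3): filterByExpr (17576 genes of 34765 with at least 1 count), TMM, and a robust quasi-likelihood fit of 3 group means to all 9 libraries, with Benjamini-Hochberg adjustment over all tested genes and calls under 0.05. Each SE was derived from the fold change and its F statistic. Symbols came from a table matching 62622 of 62700 IDs. Positions and union exon lengths came from GENCODE 29, which gave a length for 58276 of the 62700 IDs. Per-kilobase ranks between genes and the sums by role depend on these lengths. Alternatives were DESeq2 1.42.0, limma 3.58.1 on the deposited log2 CPM, other scalings and filters, fits of 2 groups, a replicate block and each library left out. The procedure was tested on simulated data with changes of equal size. That size was larger than any called for a member or listed gene, except BCL2 with CIC::DUX4. Smaller changes were not simulated. Figures were drawn with matplotlib 3.10.9.

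The labels put replicates on separate transfection days. For the fit with a replicate block, the replicate number was taken as a day shared by the groups. The main fit of 3 group means held no term for day. Deviations of same-numbered libraries of different groups correlated only between -0.03 and 0.08 (Pearson, 9 pairs). Libraries of 1 group differed by more than counting noise (chi-square over its degrees of freedom 4.62 to 7.35), and none were merged. All members were named. Genes of the 4 lists (61 genes) were named where called or as background, and the 3 genes most correlated with each member called for both fusions were named. JUN and ATF4 were named after their values were seen. A regulator and a list of genes tied to it are not reported here. The members and lists were chosen with earlier results of these data known.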

Additional observations from a re-analysis of the deposited data

How the results depend on the processing

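Over 450 recomputed values of the 10 members, 410 kept their direction and call, 14 lost a call, 11 gained one and 15 changed sign, and no called value changed sign. The rises of BCL2 with both fusions and of BCL2L11 with CIC::NUTM1 kept their calls in all settings run. The members called lower with CIC::NUTM1 numbered 3 (BMF, HRK and BAK1) in 7 of 9 other settings, among them DESeq2, limma-trend and the replicate block. They numbered 2 with at least 10 counts in every library, 1 when only the compared groups were fitted, and 0 to 3 without 1 library. Between the fusions, members higher with CIC::NUTM1 numbered 0 to 1 and members lower 0 to 2 without 1 library, and the 2 were BCL2L1 and BAK1. The replicate block changed the call of no member but BMF with CIC::NUTM1 (log2 fold change -0.53, edgeR adjusted p = 0.0293). Values that changed sign were close to 0. MCL1 with CIC::DUX4 was 0.002 with library totals, 0.0021 with at least 10 counts in every library, 0.0011 with limma-trend and 4e-04 with the replicate block (log2). Leaving out 1 library at a time gave ranges against empty vector with CIC::DUX4 of -0.0317 to 0.0504 for MCL1, -0.1756 to 0.01 for BBC3 and -0.0795 to 0.0282 for BAK1. Between the fusions the ranges were -0.054 to 0.0801 for PMAIP1, -0.2308 to 0.1113 for BMF and -0.0856 to 0.0214 for BAX.

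Against empty vector, the alike-weighted score was 0.56 higher with CIC::DUX4 and 0.28 higher with CIC::NUTM1. For CIC::NUTM1 this difference had the opposite sign to that from summed levels. Between the fusions (CIC::NUTM1 minus CIC::DUX4) the difference was -0.28. After the data were seen, 2 further forms were added. Without BCL2 the alike-weighted difference from empty vector was 0.17 with CIC::DUX4, and the difference between the fusions was -0.21. Summed levels without MCL1 gave log2 differences of 0.29 and -0.30. In both forms the CIC::NUTM1 libraries overlapped empty vector. Scores without BCL2 were 0.99, 1.06 and 1.01 with CIC::NUTM1, and 1.00, 1.08 and 1.09 in empty vector. The mean ratio without MCL1 was 0.0684 with CIC::NUTM1 and 0.0686 in empty vector. Over all genes, library totals changed the share of called genes that were higher from 75.0% to 61.0% with CIC::NUTM1 and from 75.2% to 61.4% between the fusions.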
